A study of Mus musculus with 2 samples.

Results

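The genes described here are 9 members of the insulin and insulin-like growth factor (IGF) signalling pathway, chosen by symbol from the 32285 genes of the deposited matrices: the receptors Insr and Igf1r, the adaptors Irs1, Irs2 and Irs4, the kinase subunit Pik3r1, the kinases Akt1 and Akt2, and the binding protein Igfbp4. All 9 were found in the matrices. They were measured by single-cell RNA-Seq in sorted epithelial cells of mouse small intestine, in 1 library per genotype. The WT library came from Neurog3Cre; Rosa26tdtomato mice, in which a Cre recombinase under Neurog3, a transcription factor of endocrine progenitors, switches on a red fluorescent protein in these cells and their descendants. The second library, labelled NFKO, came from Neurog3Cre-FoxO1 f/f; Rosa26tdtomato mice, which carry the same Cre and reporter together with floxed FoxO1 alleles. Both libraries therefore hold the Cre and the reporter, and any deletion is limited to cells in which Neurog3 was once active. For single-cell RNA-Seq, the study's methods describe a sort of cells positive for the red protein, and name NFKO mice for it. The classes below therefore describe sorted cells of this lineage and not the epithelium as a whole. Each library pooled 4 to 5 mice aged 4 to 6 weeks, and the attached pancreas had been removed. Cells of 1 pooled library are not replicates, so no difference between the libraries below has a replicate check, and no p-value is given. Levels are in CPM: a gene's unique molecular identifiers (UMIs, each marking 1 captured transcript) summed over a set of cells, relative to all UMIs of that set, on the usual counts-per-million scale. Reported intervals are exact 95% intervals that cover counting error only.

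Insulin and the IGFs bind receptor tyrosine kinases on the cell surface, and the activated receptors phosphorylate insulin receptor substrate (IRS) adaptors. The adaptors recruit phosphoinositide 3-kinase, whose product brings AKT kinases to the membrane, and AKT phosphorylates FOXO transcription factors and keeps them out of the nucleus. FOXO1 is therefore both the gene targeted in NFKO mice and a main target of this pathway, and Irs2 is a known FOXO1 target gene in liver. IGF-binding proteins hold IGFs in the extracellular space and are cut by proteases of the pappalysin family.

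After filtering, 3003 WT cells with a median of 16770 UMIs and 5292 NFKO cells with a median of 16627 UMIs were kept, which is 8295 cells in all. Foxo1 transcripts were not lower over all kept cells of the library labelled NFKO, with 898 UMIs in WT and 1337 in NFKO and a ratio of NFKO over WT of 1.08 (0.989 to 1.17). A count at the 3′ end need not fall in the deleted part of the gene, so this value does not check the label. Several other properties moved with the label. The WT library held 2421 male-typed and 6 female-typed cells, and the NFKO library held 350 and 4310. A list of stress genes was higher in WT in every class but 1, for example at 8300 CPM in WT and 4421 CPM in NFKO over the enteroendocrine-like cells, and Hspa1a stood at 394 and 40.6 CPM there. More WT than NFKO barcodes exceeded the mitochondrial limit, at 35.6% against 17.3%. The libraries shared 6 barcodes, of which 4 were kept. Genotype cannot be told apart from library, sex composition or stress, and results were therefore also computed in male-typed cells and in cells without Hspa1a or Hspa1b.

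Cells were clustered without the 9 genes, and clusters were named from marker genes. In WT and NFKO respectively there were 1042 and 1927 enteroendocrine-like cells, which include a cluster marked by Neurog3 and Mfng, 855 and 1263 goblet-like, 271 and 256 Paneth-like, 263 and 366 enterocyte-like, and 89 and 141 tuft-like cells. Stem-like cells numbered 291 and 171, secretory progenitor-like cells 90 and 544, and cycling cells 61 and 166. All 8 stem markers, all 8 enterocyte markers and all 10 tuft markers passed the marker rule in at least 1 cluster of the class. Enteroendocrine-like cells were divided by their leading hormone or progenitor gene into Neurog3-led, Ghrl-led, Tac1-led, Tph1-led, Gip-led, Gcg-led, Pyy-led, Nts-led, Cck-led and Sst-led groups. The Ghrl-led group held 4 of 4 X-cell markers, the Gcg-led group 5 of 5 L-cell markers and the Sst-led group 4 of 4 D-cell markers. The Pyy-led group was named from 4 of 4 N-cell markers (Nts, Pyy, Sct and Cck). Neither the Nts-led subclusters nor the Cck-led group was named by the marker rule. Of 9 enterochromaffin markers, the Tac1-led group held 9 and the Tph1-led group 6. The Gip-led group had a weak lead in most of its WT cells. Gip stood at 1.36-fold its level over all enteroendocrine-like cells in a subcluster of 173 WT and 210 NFKO cells. It stood at 6.54-fold in the other, of 28 WT and 250 NFKO cells, and neither subcluster was named by the marker rule. The smallest groups in WT were Cck-led with 18 cells and Tph1-led and Pyy-led with 31 cells each. A goblet-like cluster of 544 WT and 13 NFKO cells was led by Edn2, Areg and Hspa1a, and another held 4 WT and 185 NFKO cells, so the goblet-like values that differed between the libraries are also given without these clusters.

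**Figure D1:**
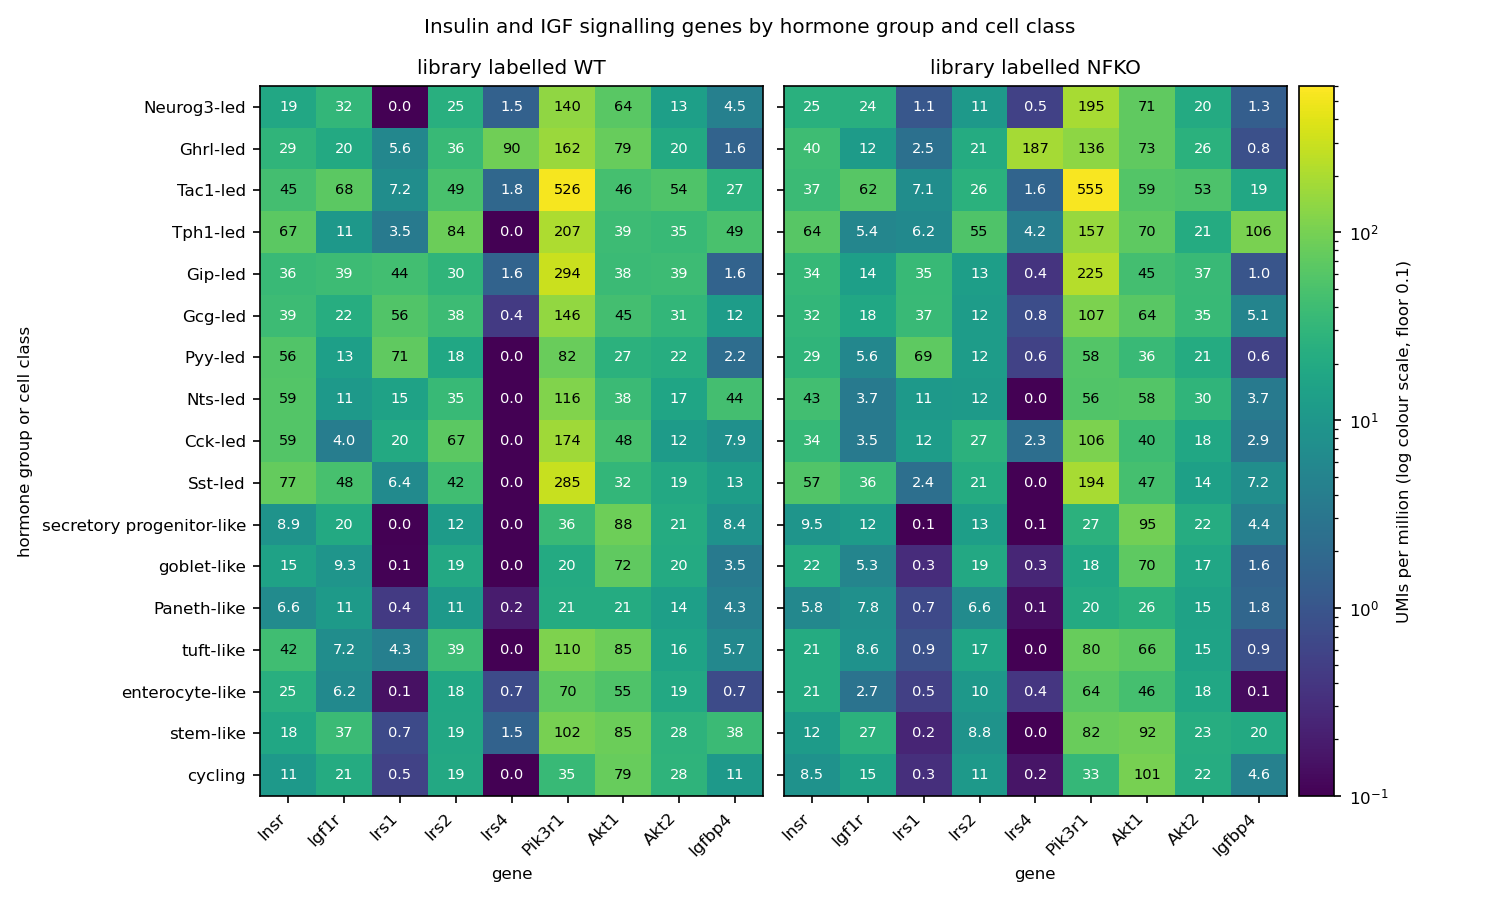
Level of each of the 9 genes (columns, CPM, printed in the cell and coloured on a log scale with a floor of 0.1) by hormone group and cell class (rows), with WT on the left and NFKO on the right. Irs4 stands out in the Ghrl-led row, at 89.7 CPM in WT and 187 CPM in NFKO, and Irs1 is near 0 in most rows outside the hormone groups.

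Insr encodes the insulin receptor (ENSMUSG00000005534, GRCm38 chr8:3122061-3279617, minus strand). Its level was higher in enteroendocrine-like cells, at 40.6 CPM in WT and 37.6 CPM in NFKO, than over the remaining kept cells, by 2.90-fold and 2.64-fold. Within the endocrine lineage the level was highest in Sst-led cells in WT (76.8 CPM, 49.2 to 114) and in Tph1-led cells in NFKO (63.6 CPM, 53.9 to 74.5). Sst-led and Tph1-led cells took the first 2 places in both libraries, with intervals that overlapped each other. The next group, Nts-led cells (59.5 CPM in WT and 42.9 CPM in NFKO), overlapped both in WT and only Sst-led cells in NFKO. The lowest levels were in Paneth-like cells, at 6.62 and 5.82 CPM. Between the libraries, Insr was lower in NFKO by the 1.5-fold rule in 3 of the 17 classes and hormone groups. Between 6.64% and 11.0% of all genes were lower by the rule in each of these 3. Insr stood at 41.6 CPM in WT and 21.0 CPM in NFKO in tuft-like cells (ratio 0.504, 0.312 to 0.828), on 29 and 49 UMIs. Tuft-like cells were shallower in WT, with medians of 6208 and 16698 UMIs, and after thinning to 2000 UMIs 9.76% (4.31 to 18.3) of the WT and 7.25% (3.53 to 12.9) of the NFKO cells had an Insr UMI, intervals that overlapped. The summed tuft markers of these cells were 7666 and 7925 CPM, the D-cell markers 620 and 53.6 CPM and the K-cell markers 151 and 3106 CPM, and their part in the difference was not tested. In Pyy-led cells it stood at 55.7 and 29.3 CPM (ratio 0.526, 0.321 to 0.885), and in stem-like cells at 18.0 and 11.9 CPM (ratio 0.659, 0.516 to 0.836). The stem-like difference was smaller in male-typed cells (ratio 0.901) and in cells without Hspa1a or Hspa1b (ratio 0.932). The summed enteroendocrine markers of the stem-like cells were 1675 CPM in WT and 343 CPM in NFKO, and their part in it was not tested. Goblet-like cells went the other way without passing the rule, at 15.1 and 21.7 CPM (ratio 1.44, 1.24 to 1.66), and the ratio was 1.14 (0.912 to 1.43) without the clusters of mainly 1 library.

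Igf1r encodes the receptor for IGF1 and IGF2 (ENSMUSG00000005533, GRCm38 chr7:67952827-68233668, plus strand). Its highest level was in Tac1-led enterochromaffin-type cells in both libraries, at 67.8 CPM (55.9 to 81.5) in WT and 61.7 CPM (50.8 to 74.1) in NFKO. That was 2.53-fold and 4.39-fold above the remaining enteroendocrine-like cells, and in NFKO the interval lay apart from the next group, Sst-led cells at 36.3 CPM. Tph1-led cells, which share enterochromaffin markers, held only 3 and 13 UMIs, at 10.5 and 5.40 CPM. Stem-like cells held the receptor at 37.3 and 26.6 CPM, 2.56-fold and 2.51-fold above the remaining kept cells. The level was lowest in enterocyte-like cells in NFKO, at 2.73 CPM. The ratio of NFKO over WT lay between 0.350 and 0.909 in the 12 classes and groups with at least 50 UMIs, and 4 of them passed the rule. Between 5.71% and 13.0% of all genes were lower by the rule in each of these 4. The share of genes below 1 in the same 12, which share 1 pair of libraries, was not computed. The largest Igf1r difference was in Gip-led cells, at 39.4 CPM in WT and 13.8 CPM in NFKO (ratio 0.350, 0.264 to 0.463). Gip-led cells came from a pair of subclusters of 173 WT and 210 NFKO cells and 28 WT and 250 NFKO cells, within which the ratio was 0.454 (0.330 to 0.623) and 0.493 (0.207 to 1.43). Over all enteroendocrine-like cells Igf1r stood at 32.7 and 17.0 CPM (ratio 0.521, 0.455 to 0.597), and at a ratio of 0.687 when the hormone groups were weighted equally in both libraries. In enterocyte-like cells the ratio was 0.442 on 42 and 21 UMIs. The summed enterocyte markers of these cells were 3437 CPM in WT and 20935 CPM in NFKO and the goblet markers 18987 and 6622 CPM, and their part in the difference was not tested. In secretory progenitor-like cells the Igf1r ratio was 0.612 (0.432 to 0.886). The goblet-like ratio of 0.567 became 0.922 (0.632 to 1.37) without the clusters of mainly 1 library and 1.06 in cells without Hspa1a or Hspa1b.

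The IRS adaptors dock to the activated receptors and differ in where they are made. Irs1 (ENSMUSG00000055980, GRCm38 chr1:82233101-82291416), Irs2 (ENSMUSG00000038894, GRCm38 chr8:10984681-11008458) and Irs4 (ENSMUSG00000054667, GRCm38 chrX:141710998-141725263) lie on the minus strand, and each overlaps a gene annotated on the other strand (Gm9747, 9530052E02Rik and Gm15295), as Insr does. How the counting used strand is not given in the sources used here. Whether reads of the overlapping gene were counted with the member is therefore not known here. The promoter sequences of the adaptors are shown because these genes of 1 family share letters there and yet had unlike levels across the cells. RefSeq windows of GRCm38.p6, from 250 bases before to 50 bases after a start, were searched on both strands for an E-box (CACGTG), an insulin response element core (TGTTTTG or CAAAACA) and a forkhead core (TGTTTAC or GTAAACA). Capitals mark the E-box and the insulin response element core, which share 2 letters in Irs1, and each sequence is written 5′ to 3′ on the gene's strand.
Irs1, chr1:82291519-82291578: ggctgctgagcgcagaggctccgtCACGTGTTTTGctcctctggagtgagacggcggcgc
Irs2, chr8:11008938-11008997: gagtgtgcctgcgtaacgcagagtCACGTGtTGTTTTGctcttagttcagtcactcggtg
Irs4, chrX:141725336-141725395: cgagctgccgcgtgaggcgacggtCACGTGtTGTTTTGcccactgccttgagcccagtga

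The E-box began 115 bases before the RefSeq start of Irs1, 44 before that of Irs2 and 154 before that of Irs4. These starts differ from the ends of the GENCODE gene positions given above. Of 32851 windows of 27025 genes, 7.15% held the E-box letters, 6.28% the insulin response element letters and 0.408% both. An insulin response element that began between 2 bases inside and 1 base after an E-box was found in 9 windows of 8 genes, which is 0.0274% of the windows, and Irs1, Irs2 and Irs4 were 3 of these genes. Irs2 and Irs4 shared the 17-base stretch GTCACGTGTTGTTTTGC, which stood in no other window. None of the windows of Igf1r, Pik3r1, Akt2 and Igfbp4 held any of the 3 motifs, and the forkhead letters, in 3.65% of all windows, stood in 1 of 2 Akt1 windows. The motifs were chosen after the sequences had been seen, and the range of spacings is the range found in Irs1, Irs2 and Irs4. Their place among the 8 genes was therefore fixed in advance. A match describes letters and is not evidence of binding, and the windows and the levels below were not tested against each other.

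Irs4 was found almost only in Ghrl-led cells, the ghrelin-making group with X-cell markers such as Ghrl and Mboat4. These cells were 3.60% of the kept WT cells and 4.50% of the kept NFKO cells and held 73.4% of the 154 Irs4 UMIs in WT and 94.4% of the 709 in NFKO. The level was 89.7 CPM (73.9 to 108) in WT and 187 CPM (173 to 201) in NFKO, and in no other class or group did it exceed 4.15 CPM. Against the remaining enteroendocrine-like cells this was 92.4-fold and 184-fold, and Irs4 was the first gene by fold of this cluster even though it had been held out of the clustering. At least 1 Irs4 UMI was seen in 19 of 108 WT and 75 of 238 NFKO Ghrl-led cells, which is 17.6% and 31.5%, against 0 and 0.475% of the goblet-like cells, at median depths of 12241 and 14933 UMIs against 24145 and 16695. The transcripts were uneven among the Ghrl-led cells, since 5 WT cells and 17 NFKO cells held 50% of them, and the highest cells had 16 and 30 UMIs. After each cell was thinned to 2000 UMIs, 10.2% (5.20 to 17.5) of WT and 17.8% (13.1 to 23.3) of NFKO Ghrl-led cells had a UMI, and these intervals overlapped.

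Irs4 was higher in the NFKO library by the 1.5-fold rule, with a ratio of 2.08 (1.70 to 2.56) in Ghrl-led cells. The summed level of the X-cell markers in the same cells was 45865 CPM in WT and 69566 CPM in NFKO, with 4 of 4 markers higher, and its part in the Irs4 difference was not tested. The ratio was 2.74 in male-typed cells (94 WT and 19 NFKO cells) and 2.99 in cells without Hspa1a or Hspa1b (41 and 213 cells). Over all alternatives it ranged from 1.81 to 4.13, the highest value coming from a finer clustering. A few cells hold many of the transcripts, so the counting interval, which treats UMIs as independent, understates the spread. In WT stem-like cells 22 Irs4 UMIs came from only 2 of 291 cells, and none was found in NFKO.

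Irs1 was a gene of the enteroendocrine-like cells, which held 93.0% of its UMIs in WT and 94.1% in NFKO. Pyy-led cells had the highest level, at 71.3 CPM (48.8 to 101) in WT and 69.3 CPM (57.6 to 82.7) in NFKO, and their ratio was 0.972 (0.654 to 1.48). Gcg-led cells, which make proglucagon, followed at 55.9 and 36.9 CPM, and Gip-led cells, most of them in WT with the weak Gip lead given above, at 43.8 and 34.6 CPM. The Pyy-led interval overlapped the Gcg-led interval in WT and lay apart from it in NFKO. In Neurog3-led, Ghrl-led, Tac1-led, Tph1-led and Sst-led cells Irs1 stood at 7.20 CPM or less, and outside the enteroendocrine-like cells at 4.31 CPM or less. The groups highest for Irs1 and for Irs4 had little of the other adaptor: Ghrl-led cells had 7 and 9 Irs1 UMIs, and Pyy-led cells 0 and 1 Irs4 UMI. Neurog3-led, Tac1-led, Tph1-led and Sst-led cells were low in both. In Gcg-led cells Irs1 was lower in NFKO by the rule, with a ratio of 0.661 (0.501 to 0.869), which was 0.598 in cells without Hspa1a or Hspa1b and 0.804 in male-typed cells, where NFKO had 7 cells. Over all enteroendocrine-like cells the ratio was 0.674 (0.589 to 0.773), just outside the threshold of 0.667, and 0.802 with the hormone groups weighted equally.

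**Figure D2:**
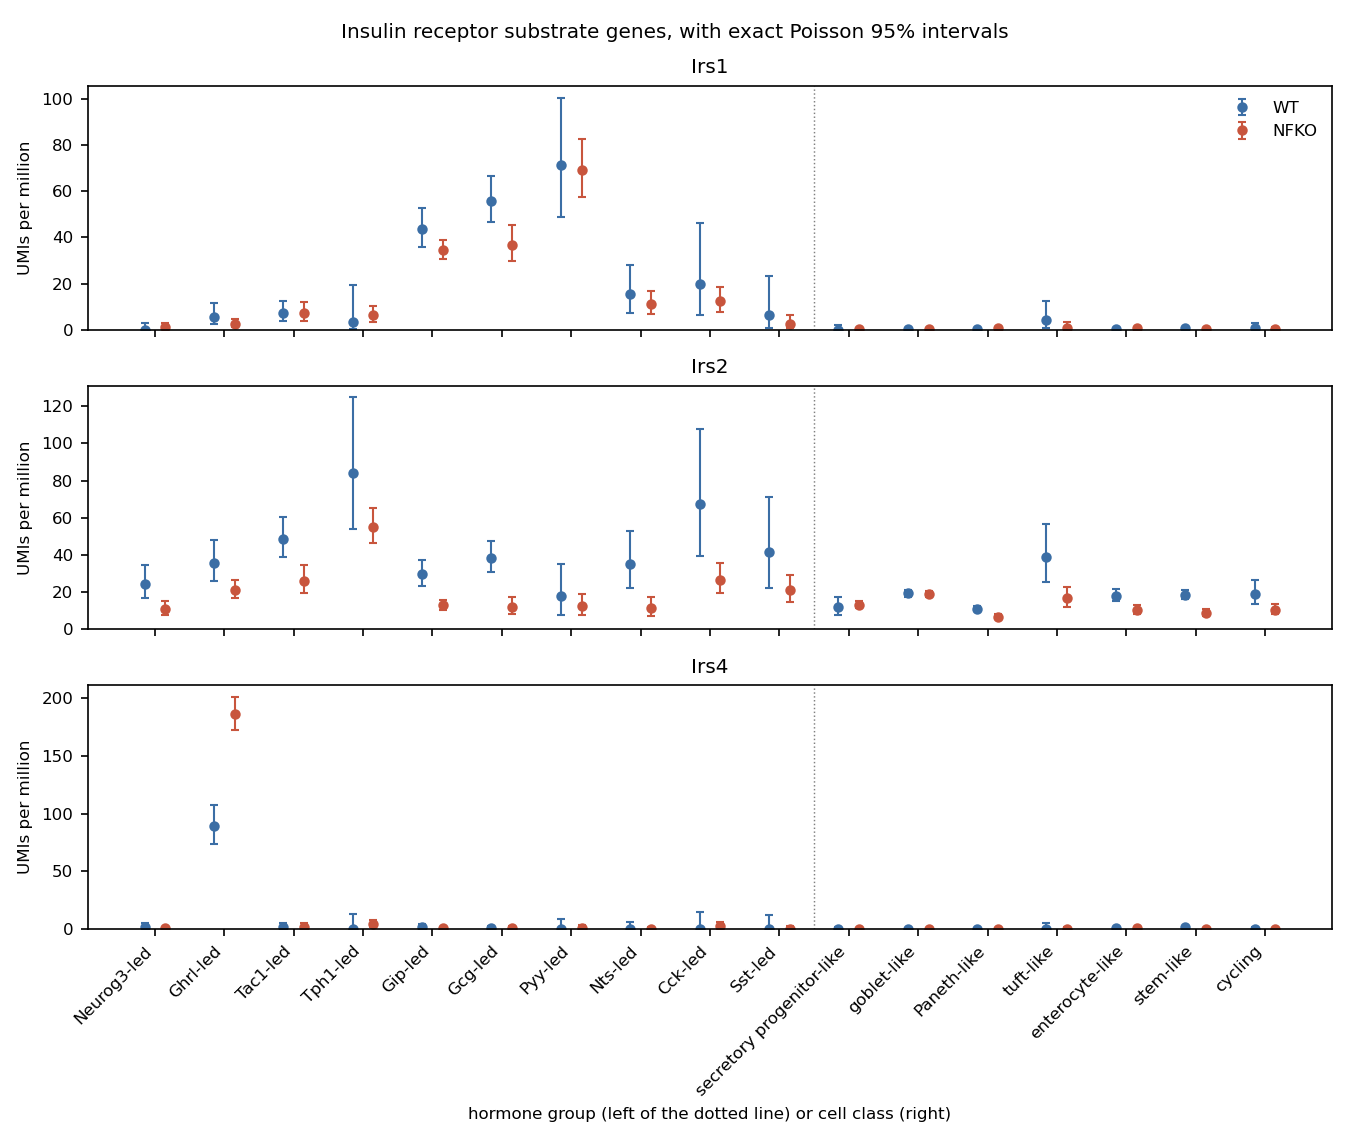
Levels of Irs1, Irs2 and Irs4 (CPM, linear axes from 0) in the hormone groups and cell classes, with WT and NFKO as separate points and bars for exact Poisson 95% intervals. Irs4 stands apart in Ghrl-led cells, Irs1 in Pyy-led, Gcg-led and Gip-led cells, and Irs2 is present in every group and class.

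Irs2, the adaptor through which insulin acts on beta cell growth and much of liver metabolism, was found in every class. The highest level in both libraries was in Tph1-led cells, at 84.1 CPM (53.9 to 125) in WT and 55.2 CPM (46.3 to 65.5) in NFKO, which was 2.34-fold and 3.49-fold above the remaining enteroendocrine-like cells. The lowest was in Paneth-like cells in WT (11.1 CPM) and NFKO (6.64 CPM). Irs2 was lower in the NFKO library in most of the lineage. Of the 14 classes and groups with at least 50 UMIs the ratio lay below 1 in 13, and 11 passed the 1.5-fold rule. Between 3.05% and 11.0% of all genes were lower by the rule in each of these 11. Of the 4305 genes with that minimum in the same 14, 6.88% lay below 1 in at least as many. The 14 classes and groups hold different cells but share the same pair of libraries.

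Over all enteroendocrine-like cells Irs2 stood at 37.2 CPM in WT and 19.1 CPM in NFKO, a ratio of 0.513 (0.452 to 0.583). The lowest ratio was in Gcg-led cells, at 38.5 and 12.2 CPM (ratio 0.317, 0.203 to 0.482), followed by Cck-led cells at 67.3 and 26.8 CPM (ratio 0.397, 0.224 to 0.739) and Gip-led cells at 29.6 and 12.9 CPM (ratio 0.437, 0.322 to 0.596). Neurog3-led cells also had the difference, at 24.5 and 11.0 CPM (ratio 0.448, 0.277 to 0.732). Within that group the ratio was 0.261 (0.124 to 0.520) in the subcluster with all 7 endocrine progenitor markers. It was 1.13 (0.429 to 3.73) in the other subcluster, which had 5 and 28 UMIs, and these intervals overlapped. That other subcluster, of 39 WT and 148 NFKO cells, was named enterochromaffin from Lmx1a, Gch1 and Tac1. The ratio was 0.539 in Tac1-led and 0.594 in Ghrl-led cells, and 0.657 (0.423 to 1.06) in Tph1-led cells, where the interval included 1.

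Outside the endocrine lineage, Irs2 was lower in tuft-like cells at 38.8 and 16.7 CPM (ratio 0.431, 0.257 to 0.732) and in stem-like cells at 18.5 and 8.79 CPM (ratio 0.475, 0.360 to 0.619). The enteroendocrine markers of the stem-like cells differed as given with Insr, and their part in the Irs2 difference was not tested. Cycling cells had a ratio of 0.552, enterocyte-like cells, whose enterocyte and goblet markers differed as given above, 0.568 and Paneth-like cells 0.597. Goblet-like cells stood at 19.3 and 18.9 CPM (ratio 0.978, 0.850 to 1.13) and secretory progenitor-like cells at 11.8 and 13.3 CPM (ratio 1.13, 0.735 to 1.80). These last values are the exceptions to the lower level in NFKO. Without the goblet-like clusters of mainly 1 library, the goblet-like ratio was 1.68 (1.27 to 2.24), which is higher in NFKO by the 1.5-fold rule.

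The stress list, which holds genes such as Fos and Jun besides heat shock genes, was higher in WT in classes with lower Irs2. It stood at 2272 and 1160 CPM in stem-like, 3168 and 1408 CPM in tuft-like and 1370 and 942 CPM in Paneth-like cells. Cells without Hspa1a or Hspa1b were chosen by these transcripts and not by the rest of the list. In cells without Hspa1a or Hspa1b the enteroendocrine-like ratio was 0.560 (0.442 to 0.716) on 287 WT and 1466 NFKO cells, close to that over all cells. It was 0.438 in Gip-led, 0.441 in Neurog3-led, 0.364 in tuft-like and 0.433 in enterocyte-like cells, all again past 1.5-fold. It was 0.506 (0.255 to 1.06) in Gcg-led and 0.616 in stem-like cells. The Paneth-like ratio turned to 1.38 on 8 and 70 UMIs and the goblet-like ratio was 1.49, so the Paneth-like difference did not hold in these cells. In male-typed cells the enteroendocrine-like ratio was 0.442, with 832 WT and 130 NFKO cells.

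**Figure D3:**
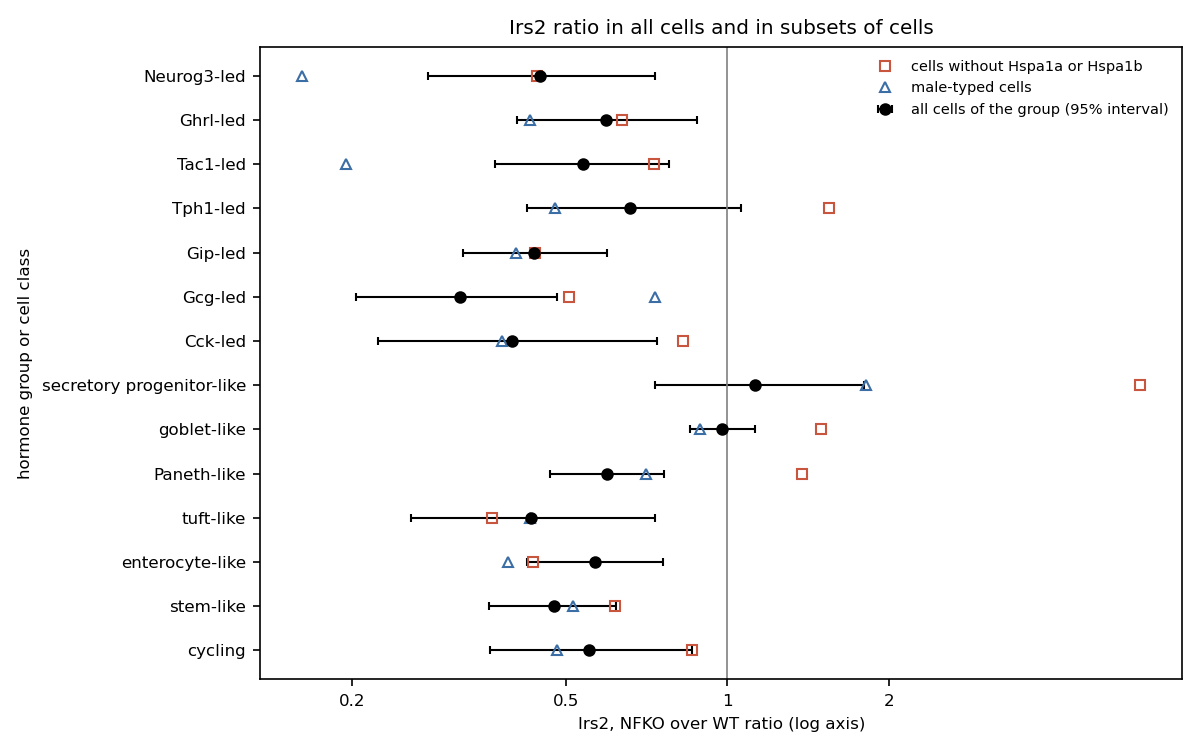
Ratio of Irs2 (NFKO over WT, log axis) by hormone group and cell class in all cells (filled points with 95% counting intervals), in male-typed cells (triangles) and in cells without Hspa1a or Hspa1b (squares). Most points lie left of 1, while the Paneth-like and goblet-like squares lie at 1.38 and 1.49, and the squares of Tph1-led and secretory progenitor-like cells, also right of 1, rest on 1 WT UMI each. The triangle of secretory progenitor-like cells lies at 1.81.

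Pik3r1 encodes the p85-alpha regulatory subunit that joins phosphoinositide 3-kinase to the IRS adaptors (ENSMUSG00000041417, GRCm38 chr13:101680563-101768217, minus strand). Enteroendocrine-like cells held 241 CPM in WT and 185 CPM in NFKO, 5.33-fold and 5.32-fold above the remaining kept cells. Tac1-led cells stood apart within them, at 526 CPM (492 to 562) and 555 CPM (521 to 590), and the next group, Gip-led cells, was at 295 and 225 CPM. Nearly every Tac1-led cell had a UMI, 133 of 138 in WT and 136 of 140 in NFKO. Tac1-led cells were thus highest for both Igf1r and Pik3r1, and Pyy-led cells in WT (82.5 CPM) and Nts-led cells in NFKO (56.0 CPM) were lowest for Pik3r1 among the hormone groups. The lowest values of all classes were those of goblet-like and Paneth-like cells, between 17.9 and 20.8 CPM. Pik3r1 was lower in NFKO by the rule in Nts-led cells (116 and 56.0 CPM, ratio 0.483, 0.357 to 0.657) and Cck-led cells (174 and 106 CPM, ratio 0.611, 0.437 to 0.869). The Nts-led cells were shallower in WT than in NFKO, with medians of 4936 and 17140 UMIs. They came from a pair of subclusters of 44 WT and 87 NFKO cells and 35 WT and 36 NFKO cells, within which the Pik3r1 ratio was 0.639 (0.336 to 1.32) and 0.636 (0.436 to 0.925). Neurog3-led cells went the other way without passing the rule (141 and 195 CPM, ratio 1.39, 1.18 to 1.64). They also came from a pair of subclusters, of 39 WT and 148 NFKO cells and of 71 WT and 106 NFKO cells. Within these the Pik3r1 ratio was 1.249 (1.001 to 1.575) and 0.903 (0.697 to 1.18), at 221 and 276 CPM and at 105 and 94.4 CPM.

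Akt1 (ENSMUSG00000001729, GRCm38 chr12:112653821-112674884, minus strand) and Akt2 (ENSMUSG00000004056, GRCm38 chr7:27591552-27640826, plus strand) encode the kinases that phosphorylate FOXO1. The microRNA gene Mir6939 overlaps Akt1, and Gm36638 overlaps Pik3r1, on the same strand. Neither kinase gene passed the 1.5-fold rule in any class or group. Akt1 was high in dividing and undifferentiated cells, at 87.5 and 95.3 CPM in secretory progenitor-like, 84.9 and 92.0 CPM in stem-like and 79.4 and 101 CPM in cycling cells, and the intervals of these 3 overlapped within each library. In WT, tuft-like cells at 84.7 CPM and Ghrl-led cells at 79.4 CPM were as high, and the goblet-like interval (71.7 CPM, 67.9 to 75.6) overlapped that of cycling cells. In NFKO the intervals of the 3 lay apart from the next group, Ghrl-led cells at 72.8 CPM. It was lowest in Paneth-like cells, at 20.9 and 26.3 CPM. Its ratios lay between 0.784 and 1.81, and the highest, in Tph1-led cells, rested on 11 WT UMIs and had an interval that included 1 (0.987 to 3.70). Akt2 was highest in Tac1-led cells, at 54.0 and 52.9 CPM, followed by Gip-led cells at 38.6 and 36.6 CPM. Its ratios lay between 0.605 and 1.78, and over all enteroendocrine-like cells the ratio was 0.940 (0.830 to 1.07).

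Igfbp4 encodes a secreted binding protein that keeps IGFs from their receptor (ENSMUSG00000017493, GRCm38 chr11:99041244-99054392, plus strand). Its level was highest in Tph1-led cells in both libraries, with an interval that overlapped those of Nts-led and stem-like cells in WT and lay apart from the next group in NFKO. Stem-like cells were highest outside the endocrine lineage. Stem-like cells stood at 37.8 CPM (34.7 to 41.1) in WT and 19.7 CPM (16.7 to 23.0) in NFKO, 6.94-fold and 3.84-fold above the remaining kept cells. Tph1-led cells stood at 49.0 CPM (26.8 to 82.3) and 106 CPM (92.9 to 119), 4.53-fold and 32.2-fold above the remaining enteroendocrine-like cells. Tac1-led cells stood at 27.0 CPM (19.7 to 36.1) and 18.6 CPM (12.9 to 25.9), and the NFKO interval overlapped that of stem-like cells. Ghrl-led, Gip-led and Pyy-led cells had 1 to 8 UMIs in each library.

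Stem-like and Tph1-led cells differed between the libraries in opposite directions. In stem-like cells Igfbp4 was lower in NFKO, with a ratio of 0.521 (0.434 to 0.622) that was 0.634 without Hspa1a and Hspa1b and 0.336 in male-typed cells (13 UMIs in 20 NFKO cells). The summed enteroendocrine markers in the same stem-like cells were 1675 CPM in WT and 343 CPM in NFKO, and the stem markers 2415 and 2078 CPM, and their part in the difference was not tested. In Tph1-led cells Igfbp4 was higher in NFKO, with a ratio of 2.15 (1.26 to 3.99) on 14 WT and 254 NFKO UMIs. Of the NFKO Tph1-led cells, 94 of 260 had a UMI and 19 held 50% of the transcripts, and 10 of 31 WT cells had a UMI. Igfbp4 was also lower in NFKO in Paneth-like (4.27 and 1.78 CPM, ratio 0.417), goblet-like (3.54 and 1.58 CPM, ratio 0.446) and secretory progenitor-like cells (8.36 and 4.36 CPM, ratio 0.522). The secretory progenitor-like ratio turned to 1.25 in male-typed cells. The goblet-like ratio was 1.05 without the clusters of mainly 1 library and 1.08 in cells without Hspa1a or Hspa1b, and the summed stem markers were 315 and 195 CPM in goblet-like cells. In Nts-led cells the gene had 29 UMIs in WT and 7 in NFKO, under the minimum, at 44.2 and 3.66 CPM, and 28 of the WT UMIs came from 1 subcluster of 35 WT cells.

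**Figure D4:**
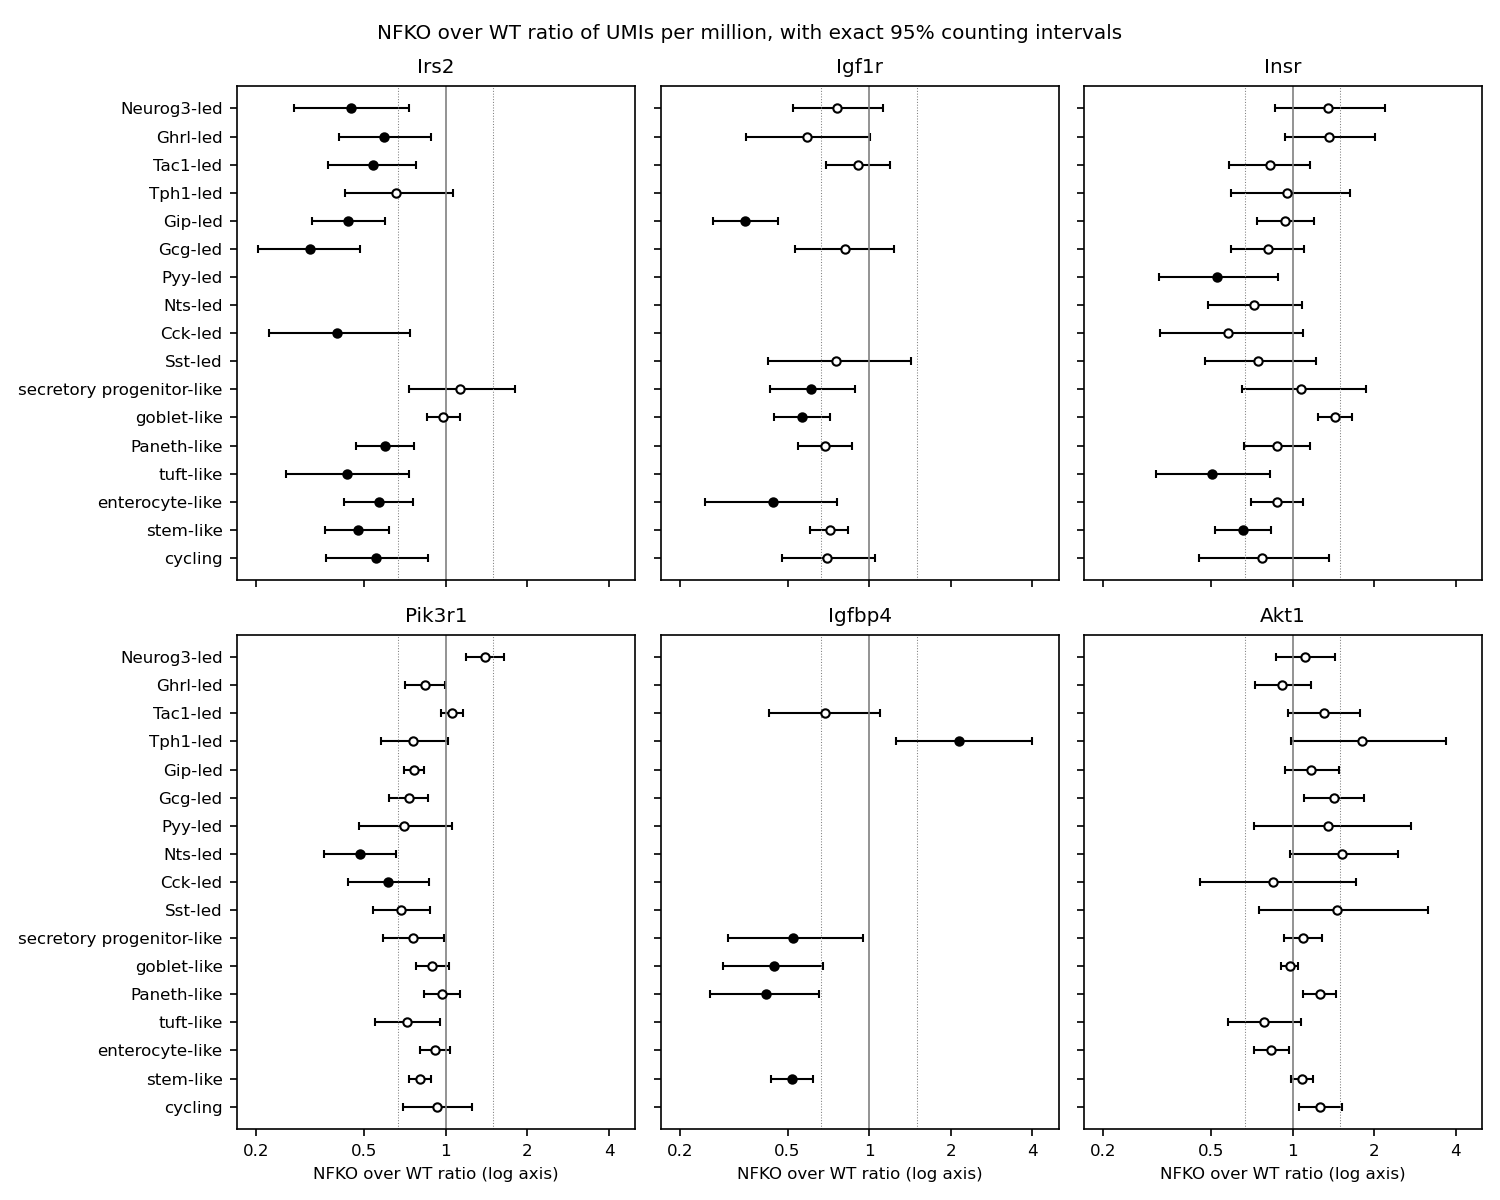
Ratio of NFKO over WT (log axis) of 6 of the genes wherever they had at least 50 UMIs, by hormone group and cell class, with 95% counting intervals, dotted lines at the 1.5-fold limits and filled points for those past the rule. Irs2 lies below 1 in 13 of 14 places and Igf1r between 0.350 and 0.909, and Akt1 has no filled point.

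Counted by cell class, the members past the rule were few and mostly lower in NFKO. In enteroendocrine-like cells 2 of 9 were lower (Igf1r and Irs2) and 1 was higher (Irs4), beside 6.42% and 5.76% of 12809 genes. In goblet-like cells 2 of 7 were lower, beside 13.0% of all genes, which had a median log2 ratio of -0.13. In Paneth-like cells 2 of 7 (Irs2 and Igfbp4) were lower beside 3.37%, in tuft-like cells 2 of 4 (Insr and Irs2) beside 11.0%, and in enterocyte-like cells 2 of 6 (Igf1r and Irs2) beside 8.34%. In stem-like cells 3 of 7 were lower (Insr, Irs2 and Igfbp4) beside 6.64%, in secretory progenitor-like cells 2 of 7 (Igf1r and Igfbp4) beside 5.71%, and in cycling cells 1 of 6 (Irs2) beside 5.07%. No member was higher in cycling cells, where 5.52% of all genes were. With so few members each share rests on 1 to 3 genes. Other scalings of the libraries shifted every log2 ratio by at most 0.15 upwards in goblet-like cells and by at most -0.22 in Paneth-like cells, whose median over all genes was 0.20. In the hormone groups these shifts lay between -0.11 and 0.15.

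Among the hormone groups, Irs2 was the member lower in Neurog3-led, Tac1-led and Ghrl-led cells, where 3.05%, 3.30% and 4.39% of all genes were lower. Irs4 was the member higher in Ghrl-led cells (4.57% of genes higher) and Igfbp4 in Tph1-led cells (6.95%). Igf1r and Irs2 were lower in Gip-led cells (8.80%), Irs1 and Irs2 in Gcg-led cells (4.29%), Insr in Pyy-led cells (7.58%), Pik3r1 in Nts-led cells (11.6%), and Irs2 and Pik3r1 in Cck-led cells (8.88%). No member passed in Sst-led cells, where 4 had the minimum.

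By place rather than by library, 4 of 9 members were at least 2-fold higher in enteroendocrine-like cells than in the remaining cells of both libraries (Insr, Irs1, Irs4 and Pik3r1), beside 37.6% of all genes, a share like that of the members. Igf1r and Igfbp4 met the rule in stem-like cells (10.6% of genes). Against the remaining enteroendocrine-like cells, Irs4 met it in Ghrl-led cells (2.96%), Igf1r and Pik3r1 in Tac1-led cells (3.61%), Irs2 and Igfbp4 in Tph1-led cells (7.44%), and Irs1 in Gcg-led (1.34%) and Pyy-led cells (1.78%). In Gcg-led cells 0 members met it with doublets kept, at the coarser clustering or with another clustering seed. The clusters were made from the same cells, so these folds are descriptions. Akt1 and Akt2 met the rule nowhere.

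The rest of the pathway was read from a list of 54 further genes. Ligand transcripts were scarce over all kept cells: Ins1 had no UMI in either library, which allows up to 0.0387 CPM in WT and 0.0280 CPM in NFKO, Ins2 had 0 and 24 UMIs, Igf1 6 and 13, and Igf2 22 and 78. In enteroendocrine-like cells 44 of the 54 had at least 50 UMIs, of which 4 were higher and 4 lower in NFKO, beside 5.76% and 6.42% of all genes. Binding proteins were among both. Igfbp5 had 1 UMI in WT and 175 in NFKO (ratio 69.1, 12.2 to 2744), and 106 of the NFKO UMIs were in Nts-led cells. Igfbp7 stood at 3.63 and 10.5 CPM (ratio 2.88), and Grb10, an adaptor that inhibits both receptors, at 1.04 and 2.83 CPM (ratio 2.73). Pappa2, a pappalysin that cuts Igfbp5 and Igfbp3, was lower at 32.5 and 2.87 CPM (ratio 0.0882, 0.0688 to 0.112), as were Igfbp2 (ratio 0.415) and Igfbp3 (ratio 0.457). Both Pappa2 and Igfbp3 had their highest level in Tac1-led cells, at 218 and 39.8 CPM for Pappa2 and 227 and 118 CPM for Igfbp3. Tac1-led cells were 138 of 1042 enteroendocrine-like cells in WT and 140 of 1927 in NFKO. The part of such differences in hormone groups in the enteroendocrine-like ratios of this list was not tested. Igfbp3 went the other way in Ghrl-led cells, at 11.1 and 51.6 CPM (ratio 4.65, 2.70 to 8.67), where 185 of its 532 NFKO UMIs were found beside 216 in Tac1-led cells.

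Outside the endocrine lineage, Socs3 and Ide passed the rule in several classes. Socs3, which blocks receptor signalling and is induced by cytokines, was lower in goblet-like (ratio 0.593), Paneth-like (0.573), enterocyte-like (0.444), stem-like (0.501) and cycling cells (0.471). Ide, the insulin-degrading enzyme, was lower in goblet-like (0.569), tuft-like (0.616), enterocyte-like (0.544) and cycling cells (0.581). The stress list was lower in NFKO in all of these classes too, for example at 4733 and 2110 CPM in goblet-like and 1666 and 890 CPM in enterocyte-like cells, and its part was not tested. In goblet-like cells 2 of 36 were higher, Insrr (4.16) and Trib3 (1.80), beside 8.09% of genes, and 4 were lower, beside 13.0%, with Sgk1 (0.611) and Socs1 (0.642) besides Socs3 and Ide. Without the goblet-like clusters of mainly 1 library, Insrr (2.48), Socs1 (0.641) and Socs3 (0.595) were again past 1.5-fold. Trib3 (1.24, 0.770 to 2.06) and Ide (0.711) were not, and Sgk1 stood at 1.04 (0.612 to 1.87). In Paneth-like cells 4 of 34 were higher, Insrr (2.60), Pik3r3 (1.91), Igfbp1 (1.85) and Pik3r2 (1.60), beside 11.3%, and 2 were lower, Socs3 and Sgk1 (0.447), beside 3.37%. In tuft-like cells Eif4ebp1 was higher (2.0), beside 14.6%, and Rptor (0.455), Igf2r (0.557) and Pdpk1 (0.667) were lower with Ide, beside 11.0%, among 21 tested. In secretory progenitor-like cells 2 of 32 passed, Socs1 (0.483) and Foxo1 (0.568), both lower, beside 5.71% of genes, a share like that of the list.

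In enterocyte-like cells 4 of 34 were higher, beside 9.37%, led by the kinase Sgk1 at 9.25 and 51.8 CPM (ratio 5.60), Phlpp2 (2.66) and Trib3 (2.15), and 3 were lower, Socs3, Ide and Foxo4 (0.584), beside 8.34%. The enterocyte and goblet markers of these cells differed between the libraries as given with Igf1r, and their part in these differences was not tested. In stem-like cells only Foxo1 of 35 was higher, at 12.0 and 18.2 CPM (ratio 1.51, 1.20 to 1.89), beside 3.47%. Among the 7 lower, beside 6.64% of genes, there were Pappa2 (0.0544), Socs3 and Foxo4 (0.538), and among the 7 Foxo3 (0.600) and Sgk1 (0.617) had the smallest differences. Pappa2, Foxo3 and Foxo4 were at least 2-fold higher in enteroendocrine-like cells than in the remaining cells of both libraries. The summed enteroendocrine markers of the stem-like cells were 1675 CPM in WT and 343 CPM in NFKO, and their part in these differences was not tested. In cycling cells Foxo1 (0.515) was lower with Socs3 and Ide, beside 5.07% of genes. Foxo1 thus passed the rule in opposite directions in stem-like and cycling cells of the library labelled NFKO.

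The genes whose levels were most like those of a member were sought by Pearson correlation of log2(CPM + 1) over 34 points, which were 17 classes and groups in each of the libraries, among 10956 genes. Points of a library share its depth and composition, so these values are descriptions. Insr was most like Prkce (r = 0.931), Retreg3 (0.927) and Synj1 (0.926), and Irs1 was most like Gnai1 (0.931), Klhl13 (0.908) and Slc26a4 (0.907). Irs2 was most like the immediate-early gene Klf6 (0.846), the dual-specificity phosphatase gene Dusp10 (0.836) and Btg1 (0.822). Irs4 was most like Acsl1 (0.785), Zcchc12 (0.722) and Gper1 (0.707), but the rank correlation with Acsl1 was -0.09. Pik3r1 was most like Zcchc14 (0.908), Parp1 (0.903) and Lhx1os (0.896), and Akt1 was most like the translation factor genes Eif3d (0.887) and Eif4a1 (0.875) together with Dcun1d5 (0.879). The first genes of Igf1r were Ppat (0.756), Ets2 (0.726) and N4bp3 (0.717), those of Akt2 Pi4k2b (0.742), Tbc1d4 (0.739) and Vps54 (0.712), and those of Igfbp4 Sorl1 (0.705), Scml4 (0.699) and Slc25a32 (0.694).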

How the data were processed

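The 9 genes, the gene lists and the rules were chosen with earlier results of these data known. Per the labels, cells of pooled small intestine were sorted and sequenced with 10x Genomics 3′ chemistry, and the submitters' processing notes name Cell Ranger 5.0.1 and mm10; the study's methods name Seurat and CytoTRACE for its own analysis. The deposited matrices hold raw UMI counts per gene and barcode, which the authors did not normalize, for 1 library per group.

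From these counts, barcodes were kept from a floor of 500 genes and 1000 UMIs upwards where mitochondrial transcripts took no more than 25% of the UMIs. Doublets were removed by the share of summed cell pairs among the neighbours, at 0.8% per 1000 barcodes, which took out 126 WT and 340 NFKO barcodes. Both libraries were clustered together (2000 variable genes, 30 components, 20 neighbours, Leiden resolution 0.8), with the members, the wider pathway list, Foxo1, insulin, Iapp and sex-linked genes held out of the variable genes. A class was named from at least 3 markers that were 2-fold higher and in at least 10% of cells; a cluster of 25 WT and 454 NFKO cells stayed unnamed, and 124 WT and 20 NFKO shallow enteroendocrine-like cells entered no hormone group. Names rebuilt in this way need not match the study's.

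UMIs were summed per class and library as CPM, with exact Poisson intervals. A ratio has an exact conditional binomial interval. A gene passed the rule with at least 50 UMIs over both libraries, a difference of at least 1.5-fold and an interval without 1. With 1 library per group no test was possible. The kept cells hold 77500386 UMIs in WT and 107134742 in NFKO, and 3 counts of these totals correspond to 0.0387 and 0.0280 CPM.

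All 9 members are named in every class. Of the wider list, every gene past the rule in a class is named, or the 3 highest and 3 lowest ratios where more than 6 passed, and for each member the 3 genes with the highest correlation. A gene of the list is not reported here. Members count as most alike only with at least 500 UMIs. Alternatives were a 15% mitochondrial limit, doublets kept, resolutions of 0.4 and 1.5, another seed, other scalings, no minimum of UMIs, equal weight per cell, male-typed cells, and cells outside clusters of mainly 1 library. Cells without Hspa1a or Hspa1b, equally weighted hormone groups and the wider list in goblet-like cells outside clusters of mainly 1 library were added after the data had been seen. Gene positions are from the GENCODE annotation of GRCm38 and promoters from RefSeq. The scripts were tested on simulated data. Python 3.11.15, numpy 2.4.6, scipy 1.17.1, pandas 2.3.3, leidenalg 0.10.2, igraph 0.11.9 and matplotlib 3.10.9 were used.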

Additional observations from a re-analysis of the deposited data

Results flagged for a closer look

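In all, 4 genes passed the 1.5-fold rule in opposite directions in different cells. Igfbp4 was higher in NFKO in Tph1-led cells (ratio 2.15, 1.26 to 3.99) and lower in secretory progenitor-like (0.522), goblet-like (0.446), Paneth-like (0.417) and stem-like cells (0.521). Without the goblet-like clusters of mainly 1 library its goblet-like ratio was 1.05, and in male-typed cells its secretory progenitor-like ratio was 1.25, so these lower values turned. Sgk1 was higher in enterocyte-like cells (5.60, 4.28 to 7.42) and lower in goblet-like (0.611), Paneth-like (0.447) and stem-like cells (0.617), with a goblet-like ratio of 1.04 without the same clusters. Igfbp3 was higher in Ghrl-led cells (4.65, 2.70 to 8.67) and lower in Tac1-led cells (0.520, 0.438 to 0.616). Foxo1 was higher in stem-like cells (1.51, 1.20 to 1.89) and lower in secretory progenitor-like (0.568) and cycling cells (0.515). None of these differences between cells was tested, because each genotype has 1 library.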

How the results depend on the processing

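No paired analysis was possible because each group has 1 library. Of 1190 ratios of members recomputed under the alternatives, 1050 stayed within their counting interval, 135 moved beyond it, and a further 5 that had passed the rule went to the other side of 1. Of the 1050 and 135, 106 also crossed 1 but had not passed the rule, Irs2 in goblet-like cells among them. The 5 were Igfbp4 in secretory progenitor-like cells in male-typed cells (1.25), Igf1r (1.06) and Igfbp4 (1.08) in goblet-like cells without Hspa1a or Hspa1b, Igfbp4 in goblet-like cells without the clusters of mainly 1 library (1.05), and Irs2 in Paneth-like cells without Hspa1a or Hspa1b (1.38). Irs2 in enteroendocrine-like cells stayed between 0.442 and 0.560 over 12 alternatives and Irs4 in Ghrl-led cells between 1.81 and 4.13 over 10, with no Ghrl-led group at resolution 0.4.

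The number of members past 1.5-fold moved as follows. With cells without Hspa1a or Hspa1b only, it was 1 in secretory progenitor-like, Paneth-like, tuft-like, enterocyte-like and stem-like cells and 0 in goblet-like cells. In male-typed cells it was 0 in secretory progenitor-like, tuft-like and cycling cells and 1 in goblet-like and enterocyte-like cells. It was 1 in secretory progenitor-like cells at a mitochondrial limit of 15%, 1 in goblet-like cells at resolution 0.4 and without the clusters of mainly 1 library, and 1 in enterocyte-like cells with doublets kept. Without those clusters the 1 goblet-like member was Irs2, which was higher in NFKO, as given above. In cycling cells the number was 2 with equal weight per cell or no minimum of UMIs, and 3 with doublets kept or at resolution 0.4 or 1.5. Of the wider pathway list, 3 genes passed in Paneth-like cells with median-of-ratios size factors, and 9 in tuft-like cells with no minimum. The number of members at least 2-fold higher in a group was 1 in Neurog3-led cells at resolution 0.4 and 1.5 and in Gip-led cells at resolution 0.4, and 0 in Gcg-led cells with doublets kept, at resolution 0.4 and with another seed. Under rank correlation 8 of the 27 most alike genes stayed among the first 3. The subsets hold fewer cells; otherwise the cause was not tested. The Cck-led, Tph1-led and Pyy-led groups hold only 18 to 31 WT cells each, and Nts-led and Sst-led cells of WT were the shallowest hormone groups, with medians of 4936 and 7013 UMIs.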

Other observations

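Other pathway genes also differed between the libraries within single hormone groups. In Ghrl-led cells Socs2, an inhibitor of growth hormone signalling, stood at 117 CPM in WT and 59.7 CPM in NFKO (ratio 0.512, 0.413 to 0.636), and Pik3r2, which encodes another regulatory subunit of phosphoinositide 3-kinase, at 19.1 and 33.5 CPM (ratio 1.76, 1.13 to 2.85). Socs3 was lower in Pyy-led (0.432), Sst-led (0.447) and Nts-led cells (0.582). Igfbp7 was higher in Gip-led cells, at 3.94 and 13.8 CPM (ratio 3.50, 1.83 to 7.49). Igfbp5 had 0 UMIs in the WT and 106 in the NFKO Nts-led cells, at 55.5 CPM in NFKO. Each value rests on 1 library per genotype.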
